A study of Mus musculus with 8 samples.

Results

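The oligodendrocyte lineage and myelin genes examined here are 39 genes that encode transcription factors, surface receptors, myelin proteins, enzymes and junction proteins of oligodendrocytes and their progenitors. They were taken as a named list and looked up in the peak lists of 4 Klf6 ChIP samples, as the gene a peak was assigned to, at any listed distance from -50 kb to +5 kb of a transcription start site (TSS). All 39 are among the 22238 protein-coding symbols of the reference annotation, of which 3325 were assigned a peak in at least 1 sample. The samples were C57BL/6 mouse oligodendrocyte progenitors (OLP), cultured with PDGF-AA at 10 ng/ml and bFGF at 20 ng/ml, and immature oligodendrocytes (iOL), derived from OLP by 18 h of exposure to 40 ng/ml of the thyroid hormone T3. Each stage had 2 biological replicates, A and B. The 4 matching input samples have no peak list of their own, since input served as the background in peak calling. By the study's methods the cells came from cortices of early postnatal mice, were depleted of microglia by panning and were caught on plates coated with an antibody to Pdgfra. A ChIP peak measures no RNA, so the identity of the cells could not be checked against expression markers in these lists.

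Oligodendrocytes arise from dividing progenitors that carry the Pdgf receptor Pdgfra and the proteoglycan Cspg4 (Ng2), and they leave the cycle, switch on myelin genes and wrap axons. Olig1, Olig2, Sox10 and Nkx2-2 are transcription factors of this lineage, while Id and Hes proteins restrain its maturation. Klf6 is a zinc-finger transcription factor of the Klf/Sp family, whose members bind GC-rich DNA such as CCACCC and CCGCCC boxes. In ChIP an antibody to Klf6 pulls down chromatin, and sequenced fragments (tags) pile up into peaks where DNA was enriched over input.

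A Klf6 peak was assigned to 8 of the 39 genes (20.5%), against 15.0% of all protein-coding genes, and 1 of the 8, Mal, had a peak in more than 1 sample. The other 7, Olig1, Sox5, Nkx2-2, Tcf7l2, Pdgfra, Ermn and Nfasc, each had a peak in 1 sample by the gene column. The remaining 31 genes were absent from the gene column of all 4 lists, among them the major myelin genes Mbp, Mog, Mag, Cnp and Mobp and the lineage regulators Olig2 and Sox10. No test was made of the list as a whole, and the stages were not compared by a test, since with 2 samples against 2 the smallest two-sided exact permutation p is 0.333.

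The 4 lists hold 12451 peaks in OLP A, 7827 in OLP B, 10225 in iOL A and 5777 in iOL B, with 105081 to 152149 tags in peaks. Of these, 7855 peaks were assigned a gene, 21.0% to 22.0% in each list. The smallest peak held 7 tags in both A replicates, 9 in OLP B and 10 in iOL B, so a place with fewer tags could not enter a list. A gene without a peak was therefore not called at this depth, which does not show that it was unbound. Tag counts were not scaled between samples, and heights are compared within a sample only. Genomic positions are in mm9.

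By sample, OLP A had a peak at 2 of the 39 genes (Mal and Nkx2-2), against 7.96% of all protein-coding genes. OLP B had one at 5 (Mal, Olig1, Pdgfra, Sox5 and Tcf7l2, or 12.8%), against 5.47%. iOL A had one at 2 (Mal and Nfasc), against 6.84%, and iOL B at 2 (Mal and Ermn), against 4.20%. Each count of 2 is 5.13% of the list. The list thus stood below the share of all genes in OLP A and iOL A and above it in OLP B and iOL B. As 1 gene is 2.56% of the list, these differences rest on few genes, and they were not tested. Mal was the member shared by both OLP samples (1 of 39, 2.56%, against 2.59%), by both iOL samples (1 of 39, against 2.30%) and by all 4 samples (1 of 39, against 1.33%). Leaving out OLP B lowered the count of genes with a peak from 8 to 4, and leaving out any other sample lowered it to 7. The share of all genes was not counted with a sample left out.

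**Figure D1:**
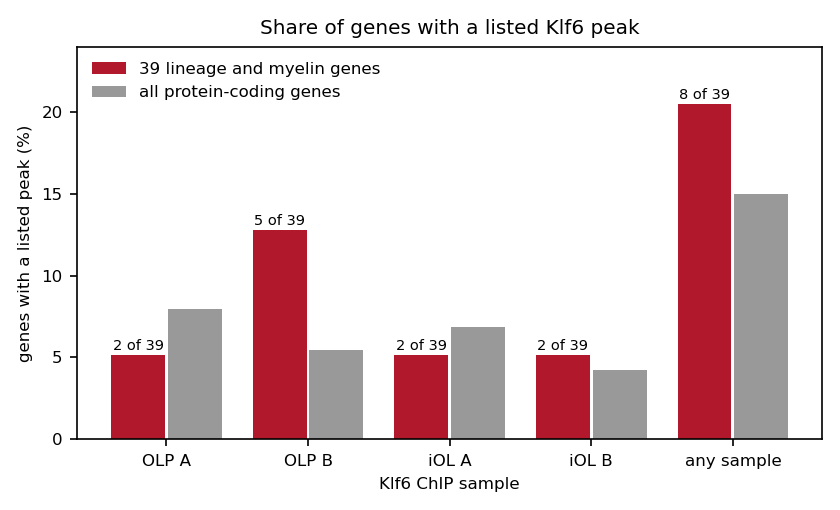
Share of genes with a Klf6 peak in each ChIP sample and in any sample (y axis, percent), for the 39 lineage and myelin genes (red, count above each bar) and all 22238 protein-coding genes (gray). The 39 genes stand higher in OLP B (5 genes), iOL B (2 genes) and any sample (8 genes), and lower in OLP A and iOL A. These differences rest on few genes and were not tested.

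**Figure D2:**
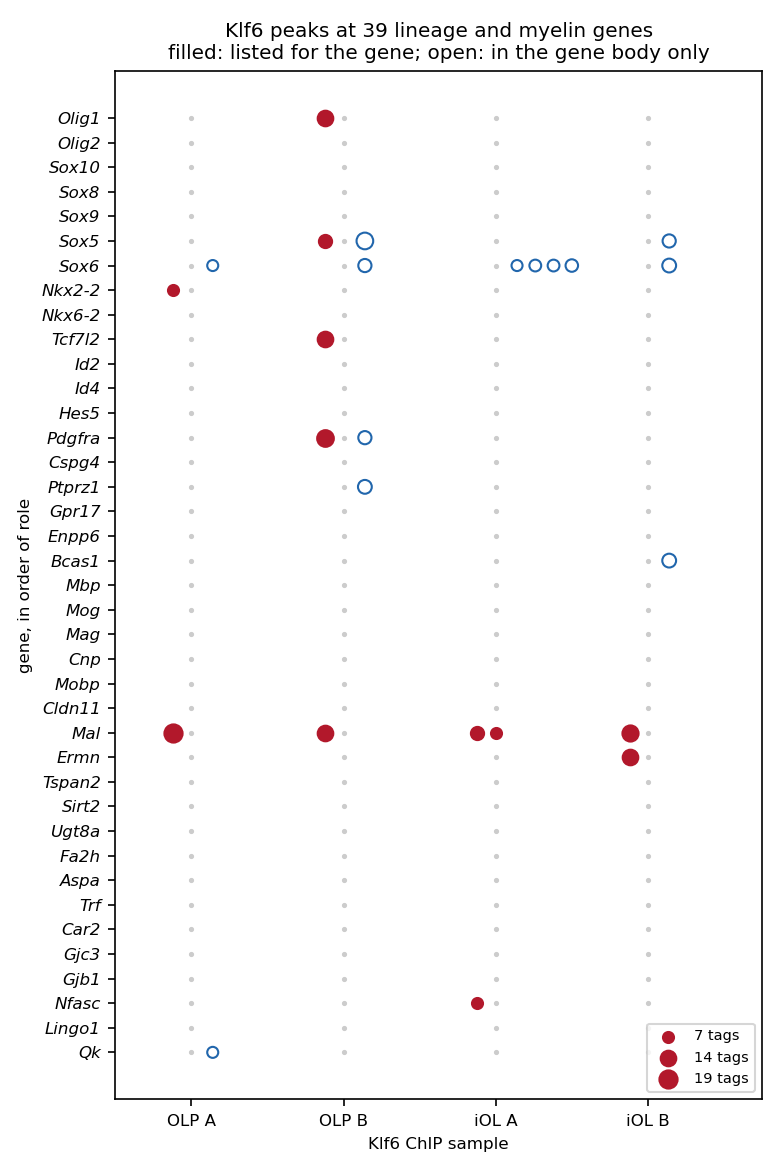
Peaks at each of the 39 genes (rows, ordered by role) in the 4 ChIP samples (columns), with the area of a circle proportional to its tags. Filled circles are peaks assigned to the gene and open circles are peaks inside the gene body only. Mal alone has filled circles in all 4 columns, and Sox6 alone has open circles in all 4. The share of all genes with a body peak in all 4 samples was not counted.

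Mal encodes a tetraspan proteolipid of compact myelin. Its peaks lie about 15.9 kb upstream of its TSS on chromosome 2, in intergenic sequence, and held 19 tags in OLP A, 14 in OLP B, 10 in iOL A and 15 in iOL B. Their summits fall within 4 bp of each other, between 127498351 and 127498355. Fold enrichment over background was 41.3 in OLP A, 15.8 in OLP B, 15.3 in iOL A and 15.9 in iOL B, and the MACS score, 10 times -log10 of the p-value, was 157.52, 100.54, 64.65 and 115.98. The false discovery rate (FDR) was 0% in all 4. This does not set the Mal peak apart in OLP A or iOL A, where the largest FDR of any peak was 0.0% and 0.01%. In both OLP samples and in iOL B the fold was at or above that of 88.4% to 98.7% of the peaks assigned a gene, while in iOL A it was at or above 62.7%. A further peak in iOL A lies 3048 bp from the OLP A peak, farther upstream, at chr2:127501363-127501484, with 7 tags and a fold of 14.9.

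The Mal peak is shown because it is the one that recurred among these genes and the one with the largest fold among them in every sample. It is given here as called in OLP A, chr2:127498305-127498498, on the plus strand of mm9, with the 88 bases inside all 4 peaks in capitals.
Mal, OLP A: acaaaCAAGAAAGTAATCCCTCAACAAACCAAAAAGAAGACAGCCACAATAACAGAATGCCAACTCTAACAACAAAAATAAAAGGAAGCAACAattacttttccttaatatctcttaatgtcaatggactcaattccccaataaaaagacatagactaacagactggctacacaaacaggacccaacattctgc

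Every one of the 57 stretches of 32 bases in the capitals occurs at more than 1 place in the genome, with a median of 29 copies and a range of 5 to 4377. Aligned reads can be placed at any of the copies of such a sequence, and how the aligner placed them here is not given in the sources used. Whether these tags came from the Mal copy was not tested. Among all genes, 919 (4.13%) had peaks of at least 2 samples at most 500 bp apart, against 1 of the 39, and 229 (1.03%) had peaks of all 4 samples within that gap, again against 1 of the 39. Such places with a gene in all 4 samples number 283. Ordered by fold within each sample, the Mal place ranked 31 of the 283 in OLP A, 75 in OLP B, 247 in iOL A and 106 in iOL B.

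**Figure D3:**
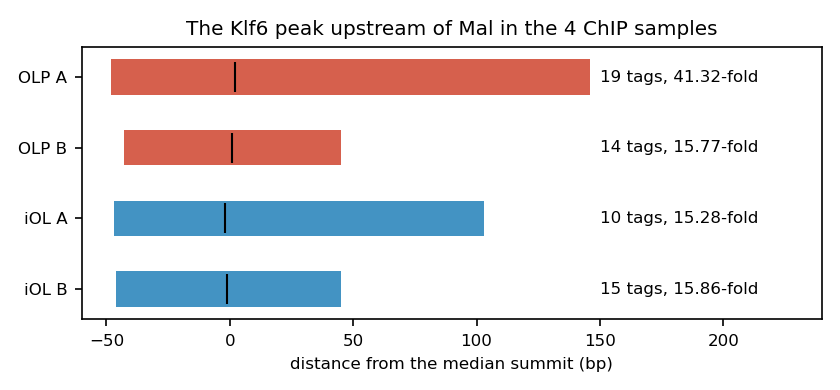
Extent of the Klf6 peak upstream of Mal in the 4 ChIP samples (rows), as distance in bp from the median summit (x axis), with black ticks at the summits. The summits fall within 4 bp, and the tags run from 10 (iOL A) to 19 (OLP A).

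Repeated sequence was common at Klf6 peaks. Peaks are termed repeated here if over 50% of their 32-base stretches occur at more than 1 place in the genome, on either strand. By this measure 9 of the 12 peaks assigned to the 39 genes were repeated (75%), against 6439 of all 7855 (82.0%). The 9 include 5 peaks at Mal, of which 4 are 1 place called in each sample. Over all genes the share rose with the number of samples that share a place, from 70.4% of places with 1 sample to 91.3% with 2, 95.3% with 3 and 97.2% with 4. By sample it was lowest in OLP B, at 68.9%, against 81.2% to 87.1% in the others. The 3 peaks without any repeated stretch, at Olig1, Sox5 and Tcf7l2, were all from OLP B. With repeated peaks set aside, 3 of the 39 genes had a peak, against 4.77% of all genes. None of the 39 had one in more than 1 sample, and the share of all genes that did was not counted.

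**Figure D4:**
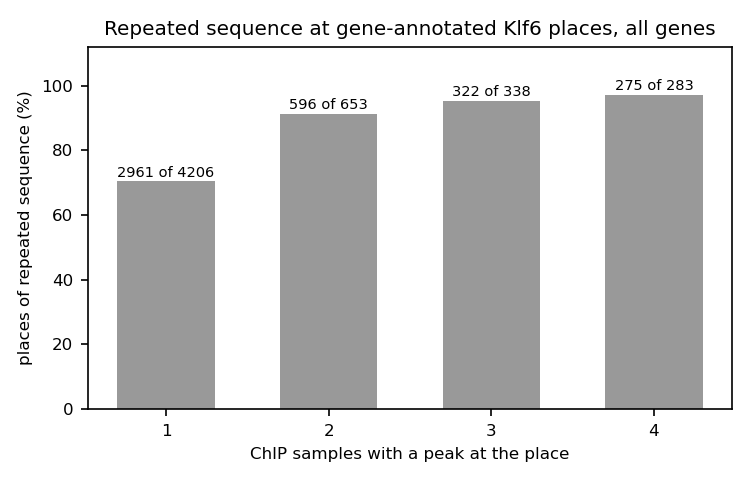
Share of gene-assigned Klf6 places that are repeated sequence (y axis, percent) by the number of ChIP samples with a peak there (x axis), over all genes, with counts above the bars. The share climbs from 70.4% (2961 of 4206) to 97.2% (275 of 283), the class that holds the Mal place.

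Of the 10 lineage transcription factors, 4 had an assigned peak, 1 of them in OLP A and 3 in OLP B. Of all protein-coding genes, 15.0% had one in any sample. By sample this share was 7.96% in OLP A, 5.47% in OLP B, 6.84% in iOL A and 4.20% in iOL B. Each role holds few genes, so counts by role are not read as a result. No peak was assigned to these factors in the iOL samples, but iOL peaks lie inside Sox5 (1 peak) and Sox6 (5 peaks), and the difference between the stages was not tested. Olig1, a basic helix-loop-helix factor needed for oligodendrocyte maturation, had 1 peak in OLP B, 6182 bp upstream of its TSS at chr16:91263732-91263948, in the intergenic stretch between Olig2 and Olig1. It held 14 tags at a fold of 7.67, and 27.9% of the peaks assigned a gene in OLP B had a fold at or below it. Its FDR was 1.24%, where the largest of any OLP B peak was 1.38%. The nearest peaks in the other samples lie 294.9 kb (OLP A), 537.4 kb (iOL A) and 1983.5 kb (iOL B) away. Tcf7l2, an effector of Wnt signaling present transiently in differentiating oligodendrocytes, had 1 peak in OLP B, 4026 bp downstream of its listed TSS and in an intron, at chr19:55820222-55820422, with 14 tags, a fold of 7.88 and an FDR of 0.50%. By the gene column, these are the genes of the 39 with a peak in the window of -15 kb to +5 kb that the study used (2 of 39, 5.13%, against 7.23%), and both calls rest on OLP B. Peaks not assigned to the member also lie within that window, upstream of Aspa in OLP B and, by the reference TSS, at Bcas1 and Sox5 in iOL B.

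The Olig1 and Tcf7l2 peaks are shown because, of the peaks assigned to these genes, they lie nearest to the listed TSS and are single-copy sequence, a choice made after their values were seen. Both are on the plus strand, with the 21 bases centered on the summit in capitals.
Olig1, OLP B: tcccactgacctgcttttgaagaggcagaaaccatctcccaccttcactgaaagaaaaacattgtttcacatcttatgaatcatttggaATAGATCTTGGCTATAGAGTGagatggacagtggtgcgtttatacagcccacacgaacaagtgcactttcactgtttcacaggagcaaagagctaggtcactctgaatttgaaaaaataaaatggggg
Tcf7l2, OLP B: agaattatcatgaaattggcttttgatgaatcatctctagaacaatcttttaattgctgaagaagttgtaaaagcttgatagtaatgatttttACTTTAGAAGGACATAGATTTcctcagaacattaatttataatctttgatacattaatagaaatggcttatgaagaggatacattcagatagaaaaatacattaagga

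Sox5, an Sry-box factor that holds progenitors back from differentiating, had an assigned peak in OLP B, 30956 bp upstream of the listed TSS and in an intron of a longer transcript, with 10 tags and a fold of 6.75. Nkx2-2, a homeodomain factor of the step to iOL, had a peak in OLP A at chr2:147050515-147050659, 38478 bp upstream of the listed TSS, with 7 tags and a fold of 13.99. It overlaps the antisense transcript Nkx2-2as and is repeated in all of its stretches. No peak was assigned to Olig2, the factor that specifies the lineage, to Sox10, an activator of myelin genes, or to its relative Sox8. Nor was any assigned to Sox9, a progenitor factor, to Sox6, a partner of Sox5, or to the homeodomain factor Nkx6-2. From the TSS of these 6 to the nearest peak of any sample, the distance was 38 kb at Olig2, 287.5 kb at Sox10, 234.9 kb at Sox8, 110.2 kb at Sox9, 14.3 kb at Sox6 and 381.8 kb at Nkx6-2. The repressors Id2, Id4 and Hes5, which hold back differentiation, had no assigned peak, and their nearest peaks lie 190.8, 209.8 and 569.0 kb away.

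Among the progenitor surface proteins, 1 of 3 had a peak, against 15.0% of all protein-coding genes. Pdgfra, the receptor for the progenitor mitogen PDGF-AA, had 1 in OLP B, 21638 bp upstream at chr5:75526574-75526720, with 16 tags, a fold of 14.6 and an FDR of 0.09%. Its fold was at or above that of 90.0% of the assigned peaks in OLP B, the highest standing among the 39 genes after Mal. All 116 of its stretches are repeated, with a median of 686 copies. Its sequence is shown for this reason, again chosen after the values were seen, on the plus strand with 21 bases centered on the summit in capitals.
Pdgfra, OLP B: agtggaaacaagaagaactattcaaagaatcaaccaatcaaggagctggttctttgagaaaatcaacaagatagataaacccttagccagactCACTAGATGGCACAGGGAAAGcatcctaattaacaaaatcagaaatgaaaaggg

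The proteoglycan Cspg4 and the receptor phosphatase Ptprz1 had no assigned peak, nor did Gpr17, Enpp6 and Bcas1, which mark cells stepping into differentiation. The nearest peaks lie 244.8 kb from Cspg4, 36.1 kb from Ptprz1, 108.4 kb from Gpr17, 82.4 kb from Enpp6 and 8.9 kb from Bcas1.

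Of the 10 myelin protein genes, Mal and Ermn had a peak, against 15.0% of all protein-coding genes. Ermn, a cytoskeletal protein of late oligodendrocytes, had 1 in iOL B, 19481 bp upstream at chr2:57924567-57924773, with 14 tags, a fold of 9.51 and an FDR of 3.38%. The next peak in another sample is 134.9 kb away, and 98.3% of the stretches are repeated. The other 8 had none at any listed distance. Mbp, the basic protein that compacts myelin, had its nearest peak at 175.5 kb, Mog at 64.7 kb, Mag, the axon-facing glycoprotein, at 306.5 kb, Cnp at 64.3 kb and Mobp at 117.7 kb. Cldn11, the claudin of myelin tight junctions, had its nearest at 224.7 kb, Tspan2 at 79.3 kb and the deacetylase Sirt2 at 293.8 kb. Mag was thus farthest from a peak of the myelin protein genes.

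The 5 genes of myelin lipid synthesis, metabolism and iron transport had no assigned peak. They are Ugt8a, which makes galactosylceramide, Fa2h, which hydroxylates its fatty acids, Aspa, which cleaves N-acetylaspartate, Car2, a carbonic anhydrase, and Trf, transferrin. Their nearest peaks lie 94.1, 349.8, 7.1, 74.3 and 431.8 kb away. The oligodendrocyte connexins Gjc3 and Gjb1 had none, the nearest being 51.3 kb from Gjc3 and 114.1 kb from Gjb1. Nfasc, an adhesion molecule of nodes and paranodes, had a peak in iOL A at chr1:134681056-134681116, 42712 bp upstream, with 7 tags. Its fold of 4.53 is the lowest at these genes, and 1.0% of assigned peaks in iOL A were at or below it. Lingo1, a brake on differentiation, and Qk, an RNA-binding protein of myelin transcripts, had no assigned peak, with the nearest at 218.9 and 91.9 kb.

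Over all 39 genes, the median distance from a TSS to the nearest peak of any sample was 91.9 kb, against 70.4 kb for all protein-coding genes on chromosomes with a peak, and 18 of 39 (46.2%) had none within 100 kb, against 39.9%. The 12 assigned peaks held 7 to 19 tags and had folds of 4.53 to 41.3. Mal has 5 of them, of which 4 are 1 place called in each sample, 15.9 kb upstream and so near the -15 kb limit. That place enters the shares below 4 times. Of the 12, 10 (83.3%) lie between -50 and -15 kb, against 61.2% of all assigned peaks, and 0 lie in the 5 kb upstream of a TSS, against 7.8%. The median GC content of the 12 was 35.4%, against 38.2% for all assigned peaks. None of the 12 held CCACCC or CCGCCC on either strand within 100 bases of its summit, against 6.1% of all assigned peaks. In the RefSeq promoters (GRCm38.p6, 300 bases around each start), 30 of the 39 genes were found, and 21 of them (70.0%) held 1 of these motifs, against 65.3% of protein-coding genes with a promoter.

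**Figure D5:**
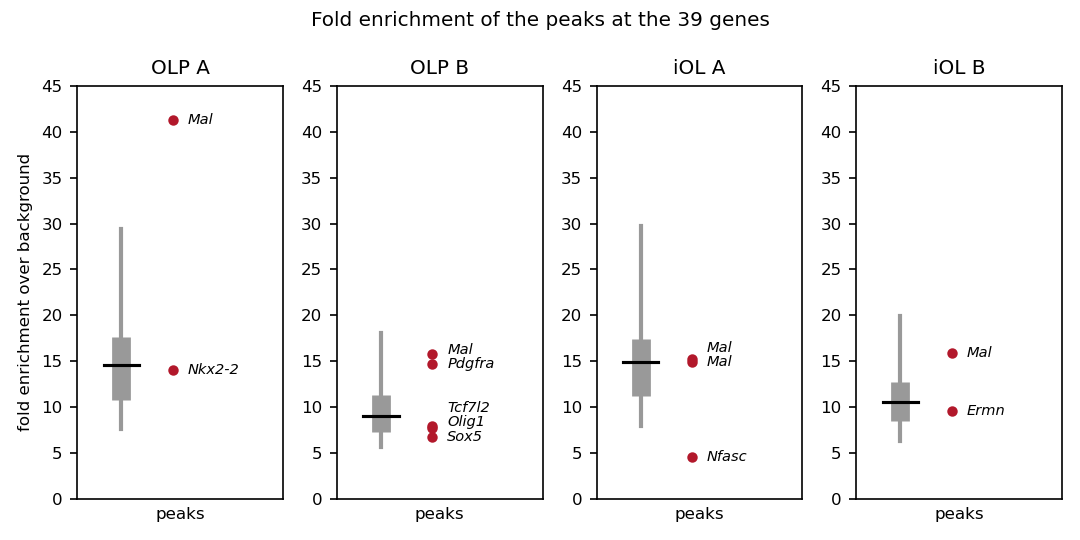
Fold enrichment over background (y axis) of the peaks at the 39 genes (red points) in each ChIP sample, beside all gene-assigned peaks of that sample (thick bar 25th to 75th percentile, thin bar 5th to 95th, black line median). Mal stands above the thick bar in OLP A, OLP B and iOL B, and Nfasc lies below the thin bar in iOL A.

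Counting every gene in range of a peak, and not only the nearest, added Sox6 and Aspa, for 10 of 39 genes (25.6%) against 21.4%. Sox6 was in range of a peak of OLP B at 43823 bp upstream (13 tags, fold 5.94). Aspa was in range of a peak of OLP B at 9256 bp upstream (11 tags, fold 5.75) and of iOL B at 44030 bp upstream (11 tags, fold 7.40).

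Inside gene bodies, 7 of the 39 genes held a peak (17.9%), against 12.5% of all protein-coding genes. They were Sox5, Sox6, Tcf7l2, Pdgfra, Ptprz1, Bcas1 and Qk, with 15 peaks in all, of which 14 lie wholly in introns. The Ptprz1 peak, from OLP B with 11 tags, overlaps annotated exons by 47 bases. The genes concerned are long, with a median of 177.4 kb against 15.0 kb for the 32 others. Over all 39 the median length was 21.8 kb, against 15.5 kb for all protein-coding genes, and the shares were not adjusted for length. Sox6, which spans 567.4 kb, held 7 peaks, with 1 each in OLP A, OLP B and iOL B and 4 in iOL A. It was the one member with a body peak in all 4 samples, and the share of all genes with this was not counted. A single Sox6 place recurred, in iOL A (8 tags) and iOL B (11 tags), at chr7:123019308-123019517, and all 7 Sox6 peaks are repeated sequence. Sox5 held 3, at different places, 2 in OLP B and 1 in iOL B, all of single-copy sequence. The body peaks of Pdgfra (OLP B, 10 tags), Bcas1 (iOL B, 11 tags) and Qk (OLP A, 7 tags) are also single copy, and none of these places was called in a second sample.

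Places of at least 2 samples within 100 kb of a TSS or in the gene body were found for 6 of the 39 genes (15.4%), against 23.0% of all protein-coding genes. Besides Mal, places near 2 genes were called in all 4 samples. The share of all genes with a place of all 4 samples in this range was not counted. The place near Nkx2-2, at chr2:146969383-146969558, lies 42.5 kb downstream of its TSS and was assigned to Nkx2-2as, with 13 tags in OLP A, 14 in OLP B, 14 in iOL A and 16 in iOL B. The place near Ptprz1, at chr6:22769175-22769364, lies 56.3 kb upstream of its TSS and was assigned to no gene, with 17 tags in OLP A, 12 in OLP B, 14 in iOL A and 22 in iOL B. The others, near Car2, Enpp6 and in Sox6, were each called in 2 samples with 8 to 11 tags. At each of the 6 genes the place is repeated sequence, with 65.3% to 100% of stretches in more than 1 copy, and whether the tags came from these copies was not tested.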

How the data were processed

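Klf6 ChIP-seq of 2 OLP and 2 iOL samples was analysed from the deposited peak lists. The study's methods and the submitters' processing notes name CASAVA 1.8, quality filtering, alignment to mm9 with Bowtie2, peak calling with MACS in each ChIP sample against input, and assignment of peaks to RefSeq transcripts. The MACS version, the number of aligned reads and the handling of multiply aligned reads are not given in the sources used here. The deposited lists give tags per peak as raw counts, the MACS score (10 times -log10 of the p-value), fold enrichment as a linear ratio over background and FDR as a percent, all computed by the authors. The authors also computed the distance to each TSS.

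Members were matched to the gene column exactly. The members and gene lists were chosen with earlier results of these data known. All 39 members were named, and other genes only if on a further lineage list with peaks in 2 or more samples. Sequences were to be printed for recurring member peaks and the largest fold per sample, which gave Mal. Peaks at most 500 bp apart were taken as 1 place. Sequence, exons and gene bodies came from NCBIM37, the same build as mm9, with GENCODE vM1, whose TSSs differ from those of the authors, so distances to the nearest peak use GENCODE. Repeats were counted over 32-base stretches on both strands. The functions for repeats and places were checked on simulated data. Tests were not made, since 2 samples against 2 allow no exact p below 0.333 and the members are not replicates. Alternatives were limits on tags, score and FDR, windows, gaps, the reference TSS, each sample left out and the replicate letter. Python 3.11.15, numpy 2.4.6, pandas 2.3.3, numba 0.67.0 and matplotlib 3.10.9 were used.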

Additional observations from a re-analysis of the deposited data

How the results depend on the processing

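The count of 8 genes with a peak was 6 with at least 10 tags and 8 with an FDR under 5%. The limit of 10 tags removed Nkx2-2 and Nfasc, each with 7 tags, and could remove no peak of iOL B, whose smallest peak held 10. The FDR limit could remove peaks in iOL B only, since the largest FDR elsewhere was 1.38%. The count of genes with a peak fell to 3 (Mal, Pdgfra and Tcf7l2) with a score of at least 50 and to 1 (Mal) with a score of at least 100. It was 2 in the window of -15 to +5 kb and 1 (Tcf7l2) in that of -5 to +5 kb. By the nearest TSS of the reference annotation it was 11. Bcas1, Ptprz1 and Sox6 were added there, and Sox5 had a peak in 3 samples (OLP A, OLP B and iOL B) and not 1. Leaving out each sample in turn gave 4 to 7, the lowest without OLP B. Leaving out peaks of repeated sequence gave 3, and counting every gene in range gave 10, both chosen after seeing the data. The share of all protein-coding genes was 7.23% in the window of -15 to +5 kb, 4.77% without repeated sequence and 21.4% for every gene in range. It was not counted under the other settings, so whether those changes are particular to these genes was not tested. The count of 1 gene with a recurrent peak was 1 to 1 on leaving out each sample, and 1 with 1 shared base or a gap of 1000 bp. These settings could not change it, since the Mal peaks of all 4 samples overlap and each other gene had assigned peaks in 1 sample. The count was 0 in both narrower windows and 0 without repeated sequence, and 2 (Mal and Sox6) by the reference TSS. The share of all genes with a recurrent peak was not counted in these windows, without repeated sequence or by the reference TSS. The 2 peaks in the study window became 1 with a score of at least 50 and were 0 to 2 on leaving out each sample, with 0 without OLP B. Grouped by replicate letter as a block, the A samples gave 3 genes with a peak and the B samples 6. The share of all genes was not counted by letter. Nothing in the labels ties same-lettered samples to one culture, and no fit was made. Peaks of 7 to 19 tags carry a large counting error, and no place with fewer tags than the smallest called peak was listed.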

Other observations

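Of 63 other oligodendrocyte lineage genes, 6 (9.52%) had an assigned Klf6 peak, against 15.0% of all protein-coding genes. Peaks of 2 samples were assigned to 2 of the 63, and the share of all genes with such peaks at any place was not counted. For 1 of the 63 they lay at the same place, against 4.13% of all protein-coding genes with a place of 2 or more samples. The peaks of the 2 genes lie in repeated sequence. Egfr, the epidermal growth factor receptor, had a place called in OLP A, 21848 bp upstream with 7 tags and a fold of 12.2, and in iOL A, 21852 bp upstream with 10 tags and a fold of 22.3. A further Egfr peak in OLP A held 11 tags. Ndrg1 had a peak 35206 bp upstream in OLP A and another 32482 bp upstream in iOL A, each with 7 tags. Among markers of other neural cells, 4 of 15 astrocyte genes (26.7%), 2 of 15 neuron genes (13.3%) and 3 of 15 microglia genes (20.0%) had an assigned peak. These shares count peaks and measure no expression.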
